A study of Mus musculus with 6 samples.

Results

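The genes described are 6 secreted factors: the colony-stimulating factors Csf1, Csf2 and Csf3, the cytokine Il34, and macrophage migration inhibitory factor Mif with its homologue Ddt. They were taken by symbol from a table of raw read counts that lists 55385 mouse genes, and all 6 were present. The cells are PDVC57, a mouse line of squamous cell carcinoma, sequenced as bulk RNA in 6 libraries: 3 labelled as a Sox2 knockout and 3 as Sox2 overexpression. Per the series' design text, carcinoma cells low and high in Sox2 were recovered from grafted tumours to ask what Sox2 switches on in tumour stem cells that acts on neutrophils. No library of unmodified PDVC57 cells was analysed here, so each difference is between the extremes of Sox2 level and not against a wild-type baseline. The host strain, the number of clones and whether replicates came from separate tumours are not given in the sources used here. The p-values therefore measure the spread between these libraries, which may be technical.

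Csf1 (M-CSF) and Il34 are unrelated in sequence but bind the same receptor, the tyrosine kinase Csf1r, which keeps monocytes and macrophages alive. Csf2 (GM-CSF) signals through an alpha chain, Csf2ra, and a shared beta chain, Csf2rb, and drives granulocytes and macrophages. Csf3 (G-CSF) acts through Csf3r and controls the output and survival of neutrophils. Mif and Ddt are small proteins of one family that bind Cd74 with Cd44 as a signalling partner, and Mif also binds the chemokine receptors Cxcr2, Cxcr4 and Ackr3. In skin, Il34 is made by keratinocytes and maintains Langerhans cells, and Csf1 is made by many stromal and epithelial cells.

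The start-site windows of Csf1, Mif and Ddt are shown because Csf1 had the largest difference of the 6 genes and Mif and Ddt are relatives that lie near each other on chromosome 10. RefSeq (GRCm38.p6) windows of 250 bases before to 50 after the start were matched for 4 of the 6 genes. That of Csf2 is not printed, because its start lies 232 bases from that of the gene model used for the positions below, against 37 bases for Mif, 40 for Ddt and 0 for Csf1. The Csf1 window is on the minus strand at chr3:107760420-107760719, the Mif window on the minus strand at chr10:75860228-75860527 and the Ddt window on the minus strand at chr10:75773325-75773624. Capitals mark the matches of a short motif search described after the sequences.
Csf1: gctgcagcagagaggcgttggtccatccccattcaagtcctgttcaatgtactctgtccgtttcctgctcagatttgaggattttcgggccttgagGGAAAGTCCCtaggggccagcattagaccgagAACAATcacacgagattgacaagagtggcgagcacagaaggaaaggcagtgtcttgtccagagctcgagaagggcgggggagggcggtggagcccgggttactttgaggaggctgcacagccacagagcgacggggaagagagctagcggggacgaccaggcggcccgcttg
Mif: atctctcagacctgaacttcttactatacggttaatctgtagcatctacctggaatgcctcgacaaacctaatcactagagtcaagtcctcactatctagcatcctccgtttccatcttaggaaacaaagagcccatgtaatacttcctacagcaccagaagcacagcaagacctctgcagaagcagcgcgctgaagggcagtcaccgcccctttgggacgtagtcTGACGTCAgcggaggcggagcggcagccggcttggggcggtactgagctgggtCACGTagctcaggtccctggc
Ddt: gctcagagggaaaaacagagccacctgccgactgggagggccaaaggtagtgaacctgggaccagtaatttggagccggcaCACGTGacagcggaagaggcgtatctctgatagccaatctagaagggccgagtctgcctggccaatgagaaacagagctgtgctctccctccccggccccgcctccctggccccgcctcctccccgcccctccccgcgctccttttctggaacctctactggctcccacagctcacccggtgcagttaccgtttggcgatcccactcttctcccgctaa
Both strands were searched for a 10-base NF-kappaB motif (its reverse complement is the first run of capitals in Csf1), the SOX letters AACAAT, the cyclic AMP element TGACGTCA, the AP-1 letters TGANTCA, the hypoxia element core ACGTG and the E-box CACGTG, and the motifs were chosen after the windows had been read. In Csf1 the first run of capitals is the NF-kappaB motif on the opposite strand, starting 154 bases before the start site, and the second is the SOX motif, starting 122 bases before it. In Mif the first is the cyclic AMP element, starting 24 bases before the start, and the second is a hypoxia element core on the opposite strand, 29 bases after it. In Ddt the capitals are an E-box, which contains the hypoxia element core on both strands, 169 bases before the start. Of 32851 RefSeq windows of the same length, 0.155% held the NF-kappaB letters, 10.7% the SOX letters, 1.79% the cyclic AMP element, 7.81% the AP-1 letters, 19.6% the hypoxia element core and 7.15% the E-box. A match describes the letters in the window and is no evidence of binding.

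Each gene was compared across the 18504 genes that passed the count filter, with edgeR's quasi-likelihood test and Benjamini-Hochberg adjustment over all of them (threshold 0.05). Levels are CPM, the counts scaled to a common library size after TMM normalization, and log2 fold changes are overexpression over knockout, with standard error (SE). Sox2 itself, counted 49, 34 and 25 times in the knockout libraries and 2566, 3790 and 4095 times in the overexpression libraries, matched the labels. All 6 factors passed the filter. Csf1 and Il34 were lower in the overexpression libraries and passed the test. Csf2, Csf3, Mif and Ddt did not pass it. That is 2 of 6, or 33.3%, where 31.6% of all tested genes passed (18.0% lower and 13.6% higher), so the share among these factors was near the background. In 5 of the 6 genes the libraries of the groups did not overlap (3 lower and 2 higher in overexpression), against 50.9% of all tested genes (26.5% lower and 24.4% higher). Their median log2 fold change was -0.33, beside -0.02 over all tested genes.

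**Figure D1:**
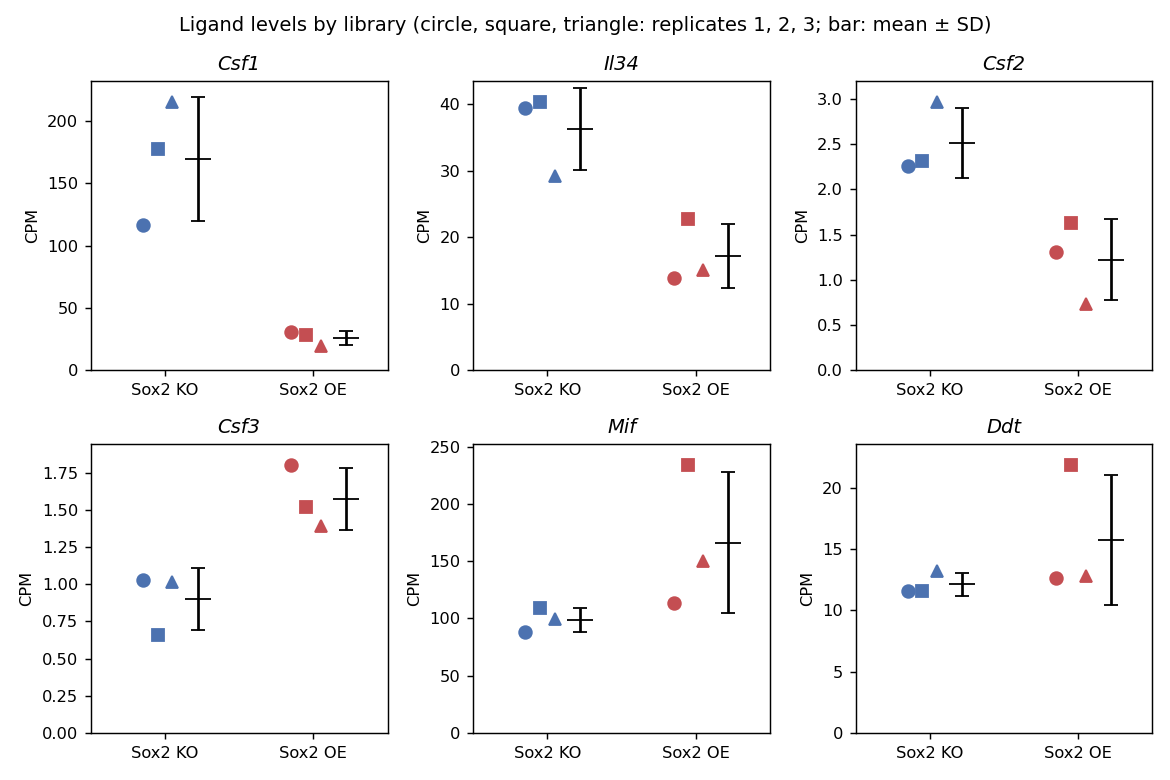
CPM (linear axis from 0) of each of the 6 factors in each library, by group, with the mean ± SD of 3 libraries. Csf1, Il34 and Csf2 lie lower in all overexpression libraries, Csf3 and Mif higher, and the groups of Ddt overlap.

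Csf1 had the largest difference of the 6 factors and was lower with Sox2 overexpression. Its gene (ENSMUSG00000014599) lies on chromosome 3, 107741048 to 107760469 (minus strand, GRCm38), with 5281 exonic bases in 12 blocks. Csf1 was counted 3975, 5379 and 7842 times in the knockout libraries and 999, 827 and 781 times in the overexpression libraries. The corresponding levels were 117, 178 and 215 CPM against 30.5, 28.0 and 19.8 CPM. Every overexpression library was far below every knockout library, and the knockout libraries also differed among themselves. The group means were 170 ± 49.7 and 26.1 ± 5.61 CPM (SD, n = 3 each). Csf1 fell 6.51-fold (log2 fold change -2.70, SE 0.27, approximate 95% interval -3.31 to -2.10, adjusted p = 0.000105). The call held with each library left out in turn, with log2 fold changes of -2.90 to -2.49. None of the gene's 31-base words occurs in another annotated transcript, so its count is not shared with a related copy.

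The libraries also differed in genes of other cell types. The summed level of 10 fibroblast markers was 53172 to 81041 CPM in the knockout libraries and 246 to 388 CPM in the overexpression libraries. All 10 of them were lower and called, and none was at 0 in either group. The summed level of 16 epithelial markers was 6060 to 9478 CPM in the knockout and 13480 to 19009 CPM in the overexpression libraries, with 11 called higher, none called lower and none at 0. The 4 pan-leukocyte markers (Ptprc, Coro1a, Laptm5 and Cd52) summed to 32.2, 61.0 and 250 CPM in the knockout libraries and 2.11 to 4.19 CPM in the overexpression libraries, and all 4 were called lower. Endothelial markers summed to 33.1 to 121 CPM against 12.5 to 19.7 CPM, with 6 of 7 tested called lower. Of 7 lymphocyte markers, 3 of 4 tested were called lower, at sums of 5.74 to 43.4 against 0.575 to 0.977 CPM. The called shares were 100% of tested fibroblast and pan-leukocyte, 68.8% of epithelial, 85.7% of endothelial and 75% of lymphocyte markers. Of all tested genes, 31.6% were called (18.0% lower and 13.6% higher). Csf1 was highest in knockout replicate 3, the library with the most leukocyte and endothelial marker counts. Il34 was at its lowest knockout level in that library (29.2 CPM), and the fibroblast sum was highest in knockout replicate 2 (81041 CPM). The part of these other cell types in the Csf1 and Il34 differences was not tested. In bulk RNA, fewer cells of a type and less RNA per cell cannot be told apart.

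**Figure D2:**
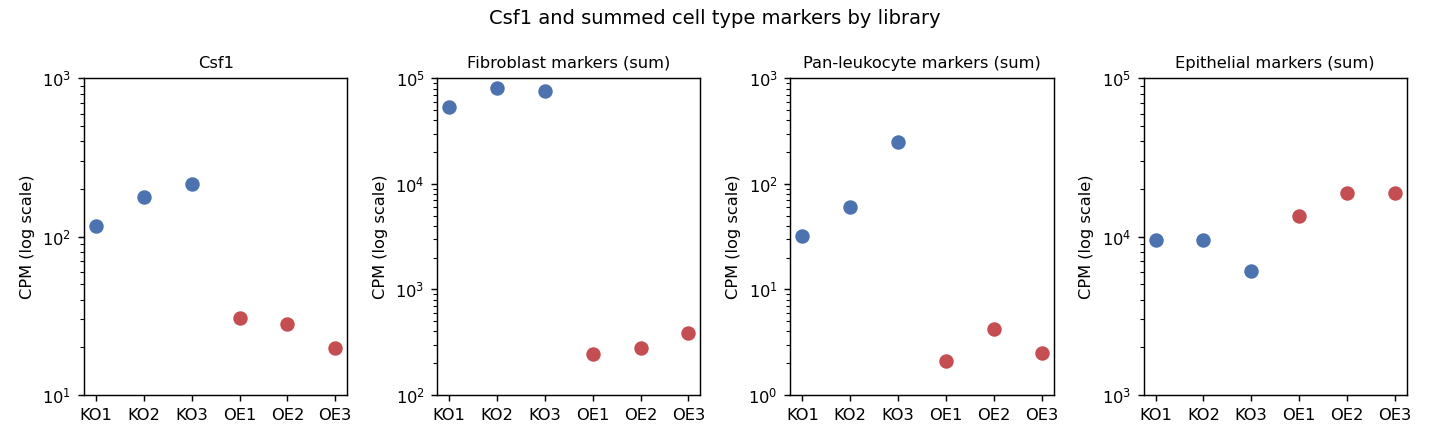
CPM (log axes) of Csf1 and of the summed fibroblast, leukocyte and epithelial marker lists in each of the 6 libraries. Csf1 and the fibroblast sum are both high in the 3 knockout libraries, and the epithelial sum is higher in the 3 overexpression libraries.

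Il34, the other Csf1r ligand, was also lower with Sox2 overexpression, by a smaller factor than Csf1. Its gene (ENSMUSG00000031750) spans chromosome 8, 110741829 to 110805924 (minus strand), with 1959 exonic bases in 9 blocks. Il34 was counted 1344, 1217 and 1065 times in the knockout libraries and 453, 672 and 598 times in the overexpression libraries. These counts were 39.4, 40.2 and 29.2 CPM against 13.8, 22.7 and 15.1 CPM. The groups did not overlap, although the lowest knockout and the highest overexpression library were near each other. The means were 36.3 ± 6.15 and 17.2 ± 4.81 CPM (SD, n = 3 each), a 2.11-fold fall (log2 fold change -1.07, SE 0.23, interval -1.60 to -0.55, adjusted p = 0.0076). With each library left out in turn, all 6 fits called Il34, at log2 fold changes of -1.31 to -0.92. Antisense genes cover small stretches of its exons (75 bases under Gm15895 and 22 under Gm15894), and with the strand setting not given, reads there could come from either gene.

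The balance of both Csf1r ligands was read within each library. The ratio of Csf1 to Il34 counts was 2.96, 4.42 and 7.36 in the knockout libraries and 2.21, 1.23 and 1.31 in the overexpression libraries. Every overexpression ratio was below every knockout ratio, with mean log2 ratios of 0.61 ± 0.46 against 2.20 ± 0.66 (SD, n = 3 each). The difference of -1.59 had an exact two-sided permutation p of 0.1, which is the smallest p that 3 against 3 libraries can give. Per kilobase of exon, the ratio was 1.10, 1.64 and 2.73 in the knockout libraries, above 1 in each, and 0.818, 0.457 and 0.484 in the overexpression libraries, below 1 in each. The ratio does not depend on library scaling but can depend on the mix of cells. The part of other cell types in it, and in the order of levels below, was not tested.

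The order of the 6 levels, compared per length, differed between the groups: Csf1 was next to Mif in the knockout libraries and below both Ddt and Il34 in the overexpression libraries, where Ddt was also above Il34. In the knockout libraries, Mif was highest at 133 ± 14.1 CPM per kb. Csf1 followed at 32.1 ± 9.41 CPM per kb. Il34 (18.5 ± 3.14) and Ddt (15.7 ± 1.21) came next and overlapped in range, then Csf2 (3.14 ± 0.488) and Csf3 (0.637 ± 0.147). In the overexpression libraries, Mif was again highest, at 223 ± 82.7 CPM per kb, followed by Ddt at 20.4 ± 6.85 and Il34 at 8.79 ± 2.46, whose ranges did not overlap there. Csf1, at 4.94 ± 1.06 CPM per kb, came after Il34, with no overlap between them. Csf2 (1.53 ± 0.565) and Csf3 (1.11 ± 0.148) were lowest and overlapped. The order rests on the division by exon length. In CPM, the overexpression mean of Csf1 (26.1) was above those of Il34 (17.2) and Ddt (15.7). The knockout mean of Csf1 (170) was above that of Mif (98.7).

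**Figure D3:**
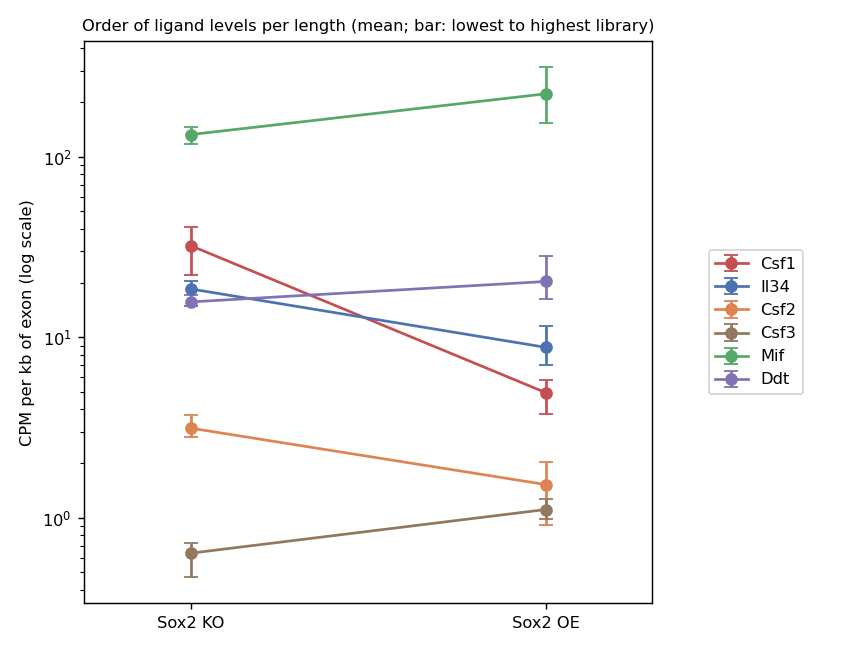
CPM per kb of exon (log axis) of the 6 factors in the Sox2 KO and Sox2 OE groups, as the mean with bars from the lowest to the highest of 3 libraries. The Csf1 line crosses those of Il34 and Ddt, and Mif stays on top in both groups.

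The factors of the granulocyte lineage, Csf2 and Csf3, were rare transcripts in both groups and lay in opposite directions without passing the test. Csf2 (ENSMUSG00000018916, chromosome 11, 54247271 to 54249667, minus strand, 800 exonic bases in 4 blocks) was counted 77, 70 and 108 times in the knockout and 43, 48 and 29 times in the overexpression libraries. The levels were 2.26, 2.31 and 2.96 CPM against 1.31, 1.62 and 0.734 CPM, with every overexpression library below every knockout library. The means were 2.51 ± 0.390 and 1.22 ± 0.452 CPM (SD, n = 3 each). The log2 fold change of Csf2 was -1.04 (SE 0.38, interval -1.90 to -0.18, adjusted p = 0.066). It passed under DESeq2's Wald test (adjusted p = 0.0433) and when scaled to the epithelial markers (log2 fold change -2.17, adjusted p = 0.00231), and over all alternatives the adjusted p ran from 0.00231 to 0.196. The antisense gene Gm12223 overlaps 96 bases, or 12.0%, of the Csf2 exons.

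Csf3 (ENSMUSG00000038067, chromosome 11, 98701263 to 98703629, plus strand, 1413 exonic bases in 5 blocks) was counted 35, 20 and 37 times in the knockout and 59, 45 and 55 times in the overexpression libraries. This gave 1.03, 0.661 and 1.01 CPM against 1.80, 1.52 and 1.39 CPM. All overexpression libraries were above all knockout libraries, at means of 1.57 ± 0.209 and 0.900 ± 0.207 CPM (SD, n = 3 each). The log2 fold change was 0.80 (SE 0.35, adjusted p = 0.119), with an interval from -0.0028 to 1.60. Scaled to the epithelial markers, the log2 fold change of Csf3 was -0.31. None of the 31-base words of Csf3 is shared with another annotated transcript.

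Mif was the highest of the factors per kb of exon in both groups, and its higher level in the overexpression libraries fell just short of the threshold. The gene (ENSMUSG00000033307) is short, at chromosome 10, 75859353 to 75860240 (minus strand), with 745 exonic bases in 2 blocks. Mif was counted 3003, 3298 and 3617 times in the knockout and 3729, 6918 and 5946 times in the overexpression libraries. The levels were 88.0, 109 and 99.1 CPM against 114, 234 and 150 CPM. All overexpression libraries were above all knockout libraries, but replicate 1 was only just so. The means were 98.7 ± 10.5 and 166 ± 61.6 CPM (SD, n = 3 each). The fitted log2 difference of Mif was 0.75 (SE 0.25, interval 0.18 to 1.32, adjusted p = 0.0513). Without overexpression replicate 1 the log2 fold change was 0.98 and passed (adjusted p = 0.0119), and with each library left out in turn the log2 fold change ranged from 0.44 to 0.98 and the adjusted p from 0.0119 to 0.133. It also passed under DESeq2 (adjusted p = 0.0192), RLE scaling (0.0494), robust dispersion (0.0478) and no count filter (0.00482). Scaling to the epithelial markers turned the sign (log2 fold change -0.39, adjusted p = 0.247), with the median of all tested genes at -1.11 under that scaling. Of the 31-base words in Mif, 60.5% occur in other annotated transcripts, mostly in C230062I16Rik, whose counts were 9.65 to 11.7% of those of Mif. With the rows that share at least 40 such words summed, the log2 fold change was again 0.75 (adjusted p = 0.0541).

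Ddt, the Mif homologue, showed the smallest difference of the 6. Its gene (ENSMUSG00000001666) is at chromosome 10, 75771230 to 75773414 (minus strand), with 773 exonic bases in 3 blocks. Ddt was counted 396, 350 and 482 times in the knockout and 413, 646 and 505 times in the overexpression libraries, or 11.6, 11.6 and 13.2 CPM against 12.6, 21.9 and 12.8 CPM. The groups overlapped, and overexpression replicate 2 stood above the other 5 libraries, as it did for Mif. The means were 12.1 ± 0.936 and 15.7 ± 5.29 CPM (SD, n = 3 each), and the log2 fold change was 0.37 (SE 0.24, interval -0.18 to 0.93, adjusted p = 0.276), which turned to -0.77 when scaled to the epithelial markers. The same-strand gene Gm20441, counted at most 41 times in a library, overlaps 232 bases (30.0%) of the Ddt exons. The ratio of Mif to Ddt counts was 7.58, 9.42 and 7.50 in the knockout and 9.03, 10.7 and 11.8 in the overexpression libraries. The ranges of the groups overlapped, with mean log2 ratios of 3.02 ± 0.19 and 3.38 ± 0.19 (SD, n = 3 each). The difference of 0.36 had an exact two-sided permutation p of 0.2, in a design that cannot go below 0.1.

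**Figure D4:**
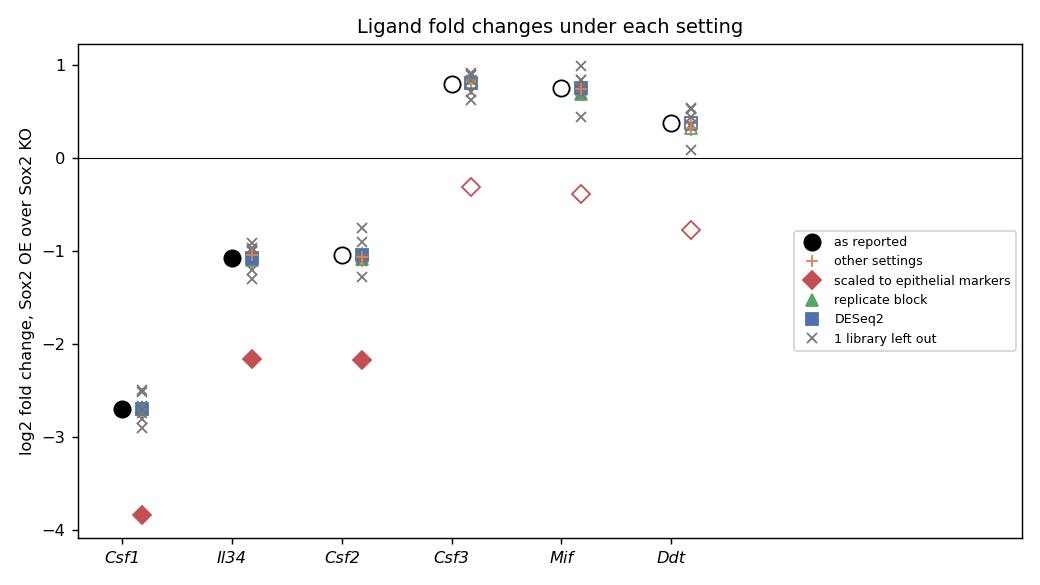
Log2 fold change of each of the 6 factors under the main analysis and each alternative (circles, squares, triangles and diamonds are filled where the adjusted p was under 0.05, and crosses and plus signs carry no fill). Csf1 and Il34 stay below 0 throughout, and Mif lies above 0 except when scaled to the epithelial markers.

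The receptors of these factors were described from a list of 12 genes, of which 7 passed the test (58.3%, 6 lower and 1 higher, where 31.6% of all tested genes passed, 18.0% lower and 13.6% higher), and their median log2 fold change was -0.83, which is the same with Csf2rb2 and Cxcr4 at their bounds. The receptor of Csf1 and Il34 did not pass it. Csf1r was counted 195, 164 and 296 times in the knockout and 529, 378 and 238 times in the overexpression libraries, and the groups overlapped at 6.42 ± 1.48 and 11.6 ± 5.16 CPM (SD, n = 3 each). For Csf1r the log2 fold change was 0.86 (SE 0.36, adjusted p = 0.103), and it passed without overexpression replicate 3 (1.19, adjusted p = 0.0177) and with no count filter (adjusted p = 0.0291), in a range of 0.0177 to 0.753 over all alternatives. Scaled to the epithelial markers, the log2 fold change of Csf1r was -0.26. The exons of Csf1r overlap those of Hmgxb3 on the opposite strand over 873 bases (15.1%), so part of its count could belong to that gene. Hmgxb3 had 1110 to 1669 counts a library, more than Csf1r. With both rows summed, a fit added after the data were seen, the adjusted p was 0.753. The 10 macrophage and monocyte markers, Csf1r among them, summed to 16.2 to 29.5 CPM in the knockout and 13.8 to 28.3 CPM in the overexpression libraries. These ranges overlapped. Of 7 tested, 3 were called lower (42.9%, against 18.0% of all tested genes called lower), and none of the 10 was at 0 in a whole group. Csf1r and Cd68 carried most of the overexpression sums, and both had log2 fold changes above 0 without passing (Cd68 0.49, adjusted p = 0.356). They were set apart from these values, not in advance. The other 8 markers summed to 7.44, 11.9 and 12.8 CPM in the knockout and 0.977, 2.91 and 0.961 CPM in the overexpression libraries. Adgre1, the F4/80 antigen of macrophages, did not pass the count filter and had 5, 24 and 36 counts against 0, 1 and 2.

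The Csf2 receptor chains were among the lowest genes of the receptor list in the overexpression libraries. Csf2ra was counted 173, 276 and 535 times in the knockout libraries and 3, 8 and 4 times in the overexpression libraries (log2 fold change -5.97, SE 0.58, adjusted p = 9.91e-05). The beta chain Csf2rb was counted 166, 241 and 746 times against 2, 10 and 8 times (log2 fold change -5.78, SE 0.72, adjusted p = 0.000416). Knockout replicate 3 carried much of this: the Csf2rb mean of 11.1 CPM became 6.42 CPM without it. Csf2rb2, the mouse beta chain paralogue that pairs with the Il3 receptor, was counted 221, 486 and 1097 times against 2, 1 and 3 times, at least 173-fold lower against a floor of 3 counts in a library (adjusted p = 6.4e-05). Without knockout replicate 3, the Csf2rb2 mean was 11.3 CPM in place of 17.5 CPM. Since 30.1% of the 31-base words of Csf2rb2 and 19.7% of those of Csf2rb are shared with other transcripts, chiefly each other, the split between them is uncertain. Of the 31-base words of Csf3r, 23.1% are shared with other transcripts, so its low count is also uncertain. Csf3r, carried by neutrophils, was counted 24, 31 and 98 times against 4, 6 and 18 times (log2 fold change -2.46, SE 0.67, adjusted p = 0.0232). The Csf3r call was lost without knockout replicate 3 (adjusted p = 0.0689, knockout mean 0.864 in place of 1.47 CPM), overexpression replicate 1 (0.0661) or overexpression replicate 2 (0.0924). Csf2ra, Csf2rb, Csf2rb2 and Csf3r were lower in overexpression and highest in knockout replicate 3, as were the summed pan-leukocyte, lymphocyte and endothelial markers. The part of these cell types in the receptor levels was not tested. The 10 neutrophil markers, with Csf3r and Cxcr2 among them, summed to 4.66 to 8.74 CPM in the knockout and 2.68 to 10.01 CPM in the overexpression libraries. Without Ly6g the other 9 summed to 2.78, 4.56 and 6.36 CPM against 1.10, 1.83 and 1.59 CPM. Csf3r was the only 1 of the 3 tested that was called (33.3%, near the 31.6% of all tested genes). Ngp was at 0 in every library, and S100a9 and Retnlg were at 0 in the overexpression libraries. Elane was at 0 in the knockout libraries and had 1 count in 1 overexpression library.

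**Figure D5:**
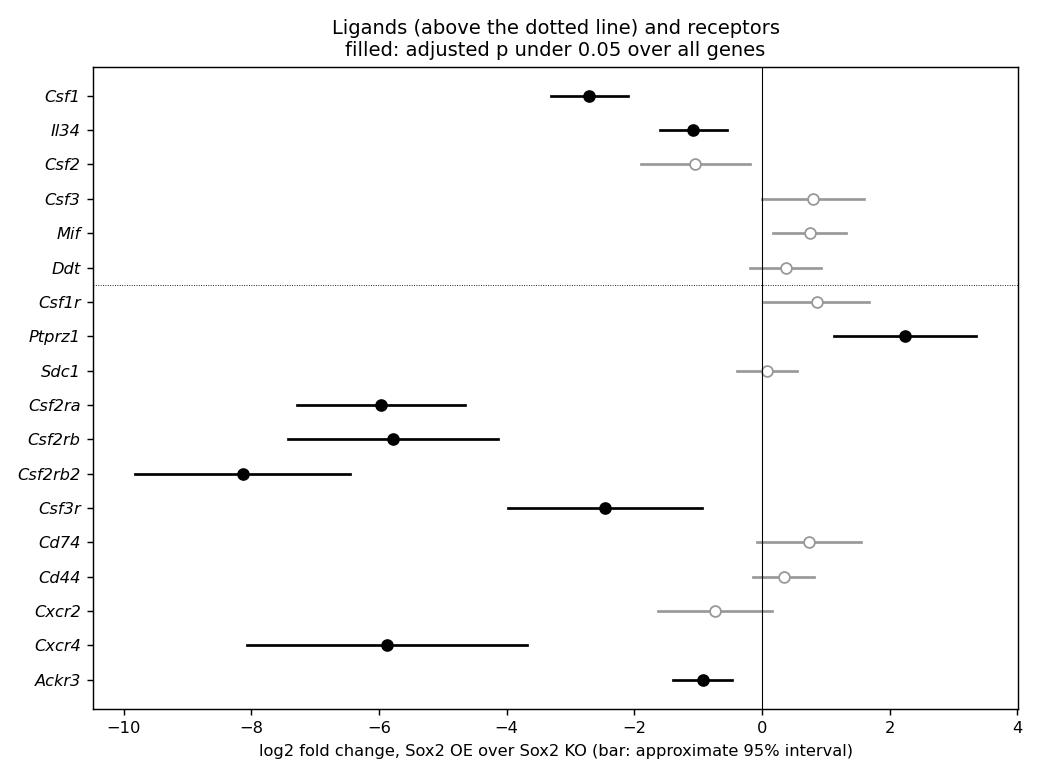
Log2 fold change (overexpression over knockout, approximate 95% interval) of the 6 factors, above the dotted line, and of 12 receptor genes below it, filled where the adjusted p was under 0.05. The Csf2 receptor chains and Cxcr4 lie far to the left, and Ptprz1 is the filled receptor to the right of 0, while the fitted values of Csf2rb2 and Cxcr4 depend on the prior count and are no bounds.

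Among the receptors of Mif, the surface receptor Cd74, which is also the invariant chain of MHC class II, was at 708, 803 and 305 CPM in the knockout and 1204, 1118 and 695 CPM in the overexpression libraries. The groups overlapped, and the log2 fold change was 0.73 (SE 0.36, interval -0.09 to 1.55, adjusted p = 0.156). The leukocyte marker Ptprc was at 10.6, 21.6 and 88.1 CPM in the knockout libraries and at no more than 0.541 CPM in the overexpression libraries. Which cells the Cd74 counts came from was not tested. The Cd74 partner Cd44 was at 631 ± 105 and 799 ± 159 CPM (SD, n = 3 each; log2 fold change 0.34, adjusted p = 0.247). Scaled to the epithelial markers, the log2 fold changes of Cd74 and Cd44 were -0.24 and -0.73. Cxcr4 was counted 33, 89 and 330 times in the knockout and 3, 3 and 1 times in the overexpression libraries, at least 42.6-fold lower (adjusted p = 0.0019). The Cxcr4 knockout mean was 4.32 CPM, and 1.96 CPM without knockout replicate 3, the library richest in leukocyte and endothelial markers. The part of these cell types in the Cxcr4 level was not tested. Ackr3, a scavenging chemokine receptor, fell from 212 ± 50.2 to 111 ± 14.1 CPM (log2 fold change -0.93, SE 0.21, adjusted p = 0.00871). Cxcr2, which also binds neutrophil chemokines, was at 1.93 ± 0.650 and 1.16 ± 0.337 CPM (log2 fold change -0.73, adjusted p = 0.189).

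The called receptor that was higher was Ptprz1, a receptor tyrosine phosphatase that binds Il34. It was counted 1700, 1603 and 495 times in the knockout and 6695, 3250 and 9244 times in the overexpression libraries. All overexpression libraries were above all knockout libraries, at 183 ± 64.7 against 38.8 ± 21.9 CPM (SD, n = 3 each), a 4.71-fold rise (log2 fold change 2.24, SE 0.49, adjusted p = 0.00829). The call held with each library left out in turn (log2 fold change 1.84 to 2.53). Scaled to the epithelial markers, the log2 fold change of Ptprz1 was 1.29 (adjusted p = 0.00621). Ptprz1 was lowest in knockout replicate 3, as was the summed level of the epithelial markers. The part of epithelial cells in the Ptprz1 level was not tested. Sdc1, a proteoglycan that also binds Il34, was at 421 ± 47.6 and 445 ± 106 CPM (log2 fold change 0.08, adjusted p = 0.789), and its sign turned to -0.07 without overexpression replicate 2.

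Of 17 genes for JAK-STAT signalling downstream of these receptors and its feedback, 4 passed the test (23.5%, against 31.6% of all tested genes), 1 higher and 3 lower, with a median log2 fold change of -0.02. Socs2, a feedback inhibitor induced by STAT5, rose from 17.0 ± 0.361 to 33.8 ± 4.77 CPM (log2 fold change 0.99, SE 0.16, adjusted p = 0.00184). Scaled to the epithelial markers, its log2 fold change was -0.09. Socs3, the feedback inhibitor of Csf3r signalling, fell from 615 ± 216 to 323 ± 57.5 CPM (log2 fold change -0.93, adjusted p = 0.0266), a call lost without knockout replicate 2 (0.0925), overexpression replicate 1 (0.0752), 2 (0.0636) or 3 (0.0517). Inpp5d, a lipid phosphatase of blood cells, fell (log2 fold change -4.54, adjusted p = 0.00423), with 96, 114 and 673 counts in the knockout libraries. Without knockout replicate 3 its log2 fold change was -3.20. Inpp5d thus peaked in knockout replicate 3, as the leukocyte and endothelial markers did, and the part of these cell types was not tested. The log2 fold change of the kinase Jak1 was -0.58 (adjusted p = 0.0453), and its call was lost in 5 of the 6 fits that left out a library.

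Colony-stimulating factor messages carry AU-rich elements that decay factors bind. Of 10 genes for such factors, 3 passed the test (30.0%, near the 31.6% of all tested genes; 2 higher and 1 lower), and their median log2 fold change was 0.04. Zc3h12a, an endonuclease that cuts cytokine messages, rose from 39.6 ± 4.33 to 60.6 ± 6.74 CPM (log2 fold change 0.61, adjusted p = 0.0159), a call lost without knockout replicate 1 (0.0562) or 3 (0.0734). Zfp36l1, which promotes decay of AU-rich messages, fell from 476 ± 127 to 257 ± 35.6 CPM (log2 fold change -0.89, adjusted p = 0.0168), a call lost without knockout replicate 2 (0.0718) or overexpression replicate 2 (0.0565). Zfp36l2, its relative, was called at a log2 fold change of 0.45 (adjusted p = 0.0442), lost in 5 of the 6 fits that left out a library, under upper-quartile scaling (0.0693), with no filter (0.0811) and with the replicate block (0.082). The signs of Zc3h12a and Zfp36l2 turned under scaling to the epithelial markers (-0.45 and -0.65). Gm26669, on the opposite strand, overlaps 1672 bases (55.9%) of the Zfp36l1 exons. With the strand setting not given, part of the Zfp36l1 count could belong to that gene.

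Of 5 genes for enzymes that release Csf1 or for proteins that bind Mif, 2 passed the test, where 31.6% of all tested genes did, and the median log2 fold change of the 5 was 0.23. Adam17, a protease that can release membrane-bound Csf1, fell from 73.6 ± 11.3 to 40.3 ± 6.65 CPM (log2 fold change -0.87, SE 0.18, adjusted p = 0.00681). Txn1, a redox protein that binds Mif, was at 188, 203 and 183 CPM in the knockout and 289.5, 323 and 261 CPM in the overexpression libraries, a rise (log2 fold change 0.61, adjusted p = 0.0147). The Txn1 call was lost without knockout replicate 1 (0.0557) or 3 (0.0635), and its sign turned under scaling to the epithelial markers (-0.49).

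Other growth factors of blood cells gave a setting for the 6 genes. Of 10 on the list, 7 passed the count filter and 3 of these were called (42.9%, against 31.6% of all tested genes), with a median log2 fold change of -0.10. Flt3l, which drives dendritic cell development, was at 6.71, 12.0 and 10.6 CPM in the knockout and 3.72, 3.25 and 2.76 CPM in the overexpression libraries, a 3.01-fold fall (adjusted p = 0.00312). The same-strand gene Gm45713 overlaps 856 bases (22.1%) of the Flt3l exons. Tslp, an epithelial cytokine, rose from 0.758 ± 0.354 to 3.24 ± 1.47 CPM (log2 fold change 2.09, SE 0.50, adjusted p = 0.0132), a call lost when scaled to the epithelial markers (1.15, adjusted p = 0.0717). Il11 was called lower (log2 fold change -1.41, adjusted p = 0.0328), and that call was lost in each of the 6 fits that left out a library. Il3 and Epo had at most 1 count in any library and were not tested, like Il5.

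For each factor, the tested genes with the most similar profile over the 6 libraries were found by the root mean square distance of log2 CPM centred on each gene. The nearest to Csf1 were Tnik (distance 0.06 log2 units) and Lrmda (0.13), and 14 genes lay within 0.25. Il34 was nearest to Olfr341 (0.09) and Snx24 (0.10), with 97 genes within 0.25. Csf2 was nearest to Sema7a (0.14) and Zmynd15 (0.15), with 32 genes within 0.25. Csf3 was nearest to Vps37b (0.08) and Hus1 (0.08), with 402 genes that close. Mif and Ddt had common profiles: 1467 genes lay within 0.25 of Mif, among them Scand1 (0.03), and 2859 within 0.25 of Ddt, led by Tradd (0.04) and Prdx5 (0.05). Small differences bring many genes close, so these numbers describe the size of the difference as well as its shape.

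No tested gene next to Csf1 or Il34 along the chromosome was called. These are few genes, and 31.6% of all tested genes were called, so most were not. Beside Csf1, the log2 fold change of Ahcyl1 was -0.05 (adjusted p = 0.809), and that of Csf1 was -2.70. Beside Il34, Mtss2 (Mtss1l in the symbols used for the counts), 427 bases away, was at 0.09 (adjusted p = 0.79) and Sf3b3 at 0.27 (adjusted p = 0.19). Csf3 lies between Psmd3 (0.55, adjusted p = 0.0762) and Med24 (0.24, adjusted p = 0.305). Gstt3, 742 bases from Ddt, was at -0.33 (adjusted p = 0.192), and Gstt2, 21933 bases from Mif, fell (-2.73, adjusted p = 0.000997). Differences between neighbours were not tested.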

How the data were processed

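The deposited values are raw counts, whole numbers in 1 column for each of the 6 libraries (31247976 to 38543221 counts), per the file headers and its values. The submitters' processing notes name kallisto 0.44.0 and the build mm10. What each was used for, the gene models and the strand setting are not given in the sources used here. Per the labels' protocols, libraries were made with a low-input kit. Of 55481 rows, 96 name no mouse gene (at most 2.23e-05% of a library) and were left out. Symbols and positions are GENCODE M21 on GRCm38, promoters RefSeq GRCm38.p6.

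Genes were filtered (filterByExpr, minimum count 10, minimum total 15), scaled by TMM and tested with edgeR 4.0.16 (quasi-likelihood) in R 4.3.3, with both groups of 3 in 1 fit and group as the only term. The SE was taken as the log2 fold change divided by the square root of F. CPM per kb uses the union of exons. Where every overexpression library had at most 3 counts (0.0759 to 0.101 CPM), the fold is a bound against 3 counts in a library. The fit was also run on simulated counts in which a small share of the genes was changed. Those counts lack the differences in cell type markers seen here. They therefore cannot test the scaling or the error rate under such differences. Alternatives were RLE and upper-quartile scaling, scaling to epithelial markers, no filter, robust dispersion, a replicate block, DESeq2 1.42.0 and each library left out. Sharing of sequence was counted in 31-base words. After the data were seen, fits with the rows that share sequence summed were added for 6 genes. The members and gene lists were chosen with earlier results of these data known. Named genes are the 6 factors, the receptors, the called genes of the other lists, the nearest 2 profiles and the flanking genes. For Mif, 1 of the 2 nearest profiles is not reported here.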

Additional observations from a re-analysis of the deposited data

Results flagged for a closer look

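The row for the reporter mCherry, which names no mouse gene and entered no comparison, had 8 counts in knockout replicate 3, 1 in replicate 2, and 0 in knockout replicate 1 and in all overexpression libraries. The row of the Mif pseudogene Mif-ps3, which did not pass the count filter, had 4 counts in overexpression replicate 1 and 3 in replicate 3, and 0 in the other libraries. Both were picked out because they hold counts in data outside the comparisons.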

How the results depend on the processing

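Csf1 and Il34 were called in the main analysis and in all 13 alternatives. The count of called factors was 2, or 3 under RLE scaling, no filter, robust dispersion, the replicate block, scaling to the epithelial markers and without overexpression replicate 1, and 4 with DESeq2 (range 2 to 3 over the fits that left out a library). Scaling to the epithelial markers moved the median of all tested genes from -0.02 to -1.11 and the calls from 5848 (2519 higher) to 12335 (346 higher). Under it, log2 fold changes turned sign for Csf3 (-0.31), Mif (-0.39), Ddt (-0.77), Csf1r (-0.26), Cd74 (-0.24), Cd44 (-0.73), Sdc1 (-1.03), Socs2 (-0.094), Zc3h12a (-0.45), Zfp36l2 (-0.65), Txn1 (-0.49), Vps37b (-0.37), Hus1 (-0.32), Scand1 (-0.43), Tradd (-0.84), Prdx5 (-0.75), Mtss1l (-0.97), Sf3b3 (-0.84), Psmd3 (-0.57) and Med24 (-0.88), by its construction, since each library is divided by markers that were higher in overexpression. All 20 lay above that median. It also moved the calls of the JAK-STAT list from 4 to 14, of the decay factors from 3 to 8 and of the partners from 2 to 4. Leaving out 1 library gave 2 to 5, 1 to 2 and 1 to 2 calls on these lists, and the log2 fold change crossed 0 for Sdc1 (-0.073 to 0.27; -0.0029 without knockout replicate 3, -0.073 without overexpression replicate 2), Ahcyl1 (-0.070 to 0.0049, without overexpression replicate 1) and Mtss1l (-0.11, without knockout replicate 3, to 0.37). The cause was not tested. The deviations of same-numbered libraries from their group means correlated weakly across genes (r = 0.05, 0.02 and -0.04). With 3 libraries a group, this cannot exclude that the replicate numbers mark pairs. With the replicate block 5593 genes were called, with Mif at 0.69 (adjusted p = 0.0232) and Cd74 at 0.81 (0.0162) among them, and the differences in the ratios were -1.59 for Csf1 to Il34 and 0.36 for Mif to Ddt, equal to those without it by arithmetic in this balanced design. Csf2 and Csf3 had 20 to 108 counts a library, and whether depth kept them from passing was not tested.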

Other observations

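Mif and Ddt lie 86.0 kb apart on chromosome 10, and the 4 protein-coding genes between them are glutathione S-transferases of the theta class, an interval chosen after its values were seen. Gstt1 was counted 872, 922 and 936 times in the knockout and 79, 117 and 84 times in the overexpression libraries. Every overexpression library was far below every knockout library, at 27.2 ± 2.82 and 2.83 ± 0.986 CPM (SD, n = 3 each), and Gstt1 fell 9.65-fold (log2 fold change -3.27, SE 0.27, adjusted p = 3.41e-05 with edgeR). Gstt2 was counted 64, 75 and 68 times against 12, 6 and 14 times, a 6.61-fold fall (adjusted p = 0.000997). Gstt3 was at 23.3 ± 1.05 and 18.5 ± 3.49 CPM and did not pass (adjusted p = 0.192), and Gstt4 did not pass the count filter. The genes that bound this interval had log2 fold changes of 0.37 (Ddt, adjusted p = 0.276) and 0.75 (Mif, adjusted p = 0.0513), so the called falls lay between genes that were not called lower. Differences between these genes were not tested.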
